A study of Mus musculus with 4 samples.

Results

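The genes described here are the coreceptors Cd4, Cd8a and Cd8b1, the CD4 lineage factor Zbtb7b, the transcription factors Runx1, Runx2 and Runx3, and Cbfb, the partner subunit of the Runx proteins. They were chosen by symbol, and each of the 8 matched exactly 1 of the 50600 genes in the deposited tables. RNA was sequenced from T cells of C57BL/6NJ mice in 1 group of 4 biological replicates, with no second condition, so genes were compared with each other inside each library. Per the file headers the cells were Th0, activated, sorted and collected at 72 h, and a culture protocol linked in the labels carries CD4 T cells in its name. Th0 is the usual name for helper T cells activated without cytokines that steer them to a subset. The headers give no marker for the sort, and age and sex were not recorded.

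CD4 and CD8 are the coreceptors that bind MHC class II and class I molecules beside the T cell receptor and bring the kinase Lck to it. CD8 appears on conventional T cells as a pair of an alpha chain, from Cd8a, and a beta chain, from Cd8b1, and the alpha chain is needed to carry the beta chain to the surface. In the thymus Zbtb7b, also called ThPOK, keeps Cd4 on and CD8 lineage genes off. Runx3 silences Cd4 and acts in CD8 cells, while Runx1 acts earlier and Runx2 is best known from bone. Each Runx protein binds DNA as a pair with Cbfb, which does not itself contact DNA.

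Total counts ranged from 34978213 in replicate 1 to 118937382 in replicate 2. All 10 T cell markers reached a TPM (a level corrected for gene length and library total, summing to 1000000) of 1 in every library, led by Trac at 1892 ± 92.1 (SD, n = 4). Summed markers reached 2.13 to 3.68 TPM for macrophages (5 genes), 2.25 to 5.59 for B cells (5 genes) and 363 to 438 for gamma-delta T and NK cells (6 genes), the last mostly from Il2rb. All libraries carry the same donor entry, yet the X-inactivation RNA Xist stood at 278 and 316 TPM in replicates 1 and 2 and at 1.25 and 0.586 in replicates 3 and 4. The Y-linked gene Ddx3y went the other way, at 0.153 and 0.0739 against 41.2 and 34.0 TPM, so replicates 1 and 2 carry the female pattern and replicates 3 and 4 the male one, and the 4 did not all come from 1 animal. Within each of these pairs the labels do not say whether the animals or cultures were separate. Each SD is the spread over all 4 libraries and so holds any difference between the sexes, and may in part be technical.

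The 8 genes ranged from a transcript close to the detection limit to one of the most abundant. Cd4 was highest, at rank 96 of the 21764 protein-coding genes by mean TPM, followed by Cbfb at rank 1881, Zbtb7b at 2047, Runx3 at 2977, Cd8b1 at 6657, Runx1 at 7499, Runx2 at 9340 and Cd8a at 12384. Differences were taken inside each library on the scale log2(TPM + 0.1), which understates those of low genes, and tested by exact permutation of their signs (the sign-flip test, two-sided). With 4 libraries this test cannot give a p below 0.125, so no pair can pass 0.05. Of 29 differences, 28 had the same direction in 4 of 4 libraries, each with exact p = 0.125 and Benjamini-Hochberg adjusted p = 0.129. The exception was Zbtb7b minus Cbfb, at -0.10 ± 0.16 log2 (SD, n = 4; exact p = 0.50). Zbtb7b was below Cbfb in replicates 1 and 2 and above it in replicates 3 and 4, the same division as that of Xist and Ddx3y. Over all 4 libraries these neighbours in the order did not differ beyond their spread, and the part of sex was not tested.

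**Figure D1:**
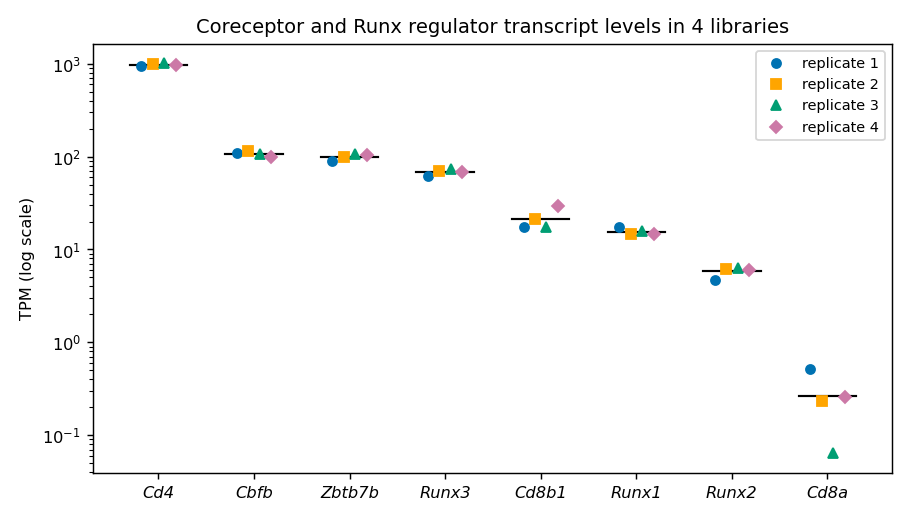
TPM of the 8 genes on a log axis, ordered by mean; each symbol is 1 of the 4 libraries and the bar is their mean. Cd4 lies near 1000 TPM in all libraries, and the Cd8a points spread from 0.0636 to 0.511.

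Cd4 (ENSMUSG00000023274.14; in mm10 on the minus strand of chromosome 6, from 124864692 to 124888221) had a level of 938, 985, 1008 and 971 TPM in replicates 1 to 4. The highest library was 1.07 times the lowest, or 1.03 times with CPM (counts scaled to the same library total, without length). As log2 CPM after TMM scaling, its SD between libraries was 0.012, against a median of 0.074 in the 500 genes nearest in level, and 0% of those 500 had a lower SD. Cd4 was thus the steadiest of the 8 genes in these libraries. A sort that used CD4 would set which cells were measured, and its part in the level was not tested.

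The chains of CD8 were low and unequal. Cd8a (ENSMUSG00000053977.13, chromosome 6, 71373427 to 71379173, plus strand, mm10), the alpha chain, had 21, 31, 3 and 28 counts in replicates 1 to 4. These are 0.511, 0.234, 0.0636 and 0.261 TPM. Exact Poisson 95% intervals ran from 0.317 to 0.782 TPM in replicate 1 and from 0.0131 to 0.186 in replicate 3, so these libraries differed by more than counting error, which is all that such intervals cover. Replicate 3 is at the limit that a count of 0 would allow, 3 counts or 0.0636 TPM for this gene. Its total depth was above that of replicate 1, which had the highest Cd8a level.

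Cd8b1 (ENSMUSG00000053044.8, chromosome 6, 71322788 to 71337494, plus strand, mm10), the beta chain, had 295, 1156, 336 and 1279 counts, or 17.6, 21.4, 17.5 and 29.2 TPM. Replicates 1 and 3 were alike, and replicate 4 was highest. Cd8b1 therefore exceeded its partner chain in every library, by 4.86, 6.01, 6.75 and 6.34 log2 in replicates 1 to 4, a mean of 5.99 ± 0.81 (SD, n = 4; exact sign-flip p = 0.125). As a ratio of TPM this was 34.5-fold in replicate 1, with an exact binomial (Clopper-Pearson) 95% interval from 22.1 to 56.5, and 91.5-fold in replicate 2, with one from 64.1 to 135. In replicate 4 it was 112-fold, with an interval from 77.1 to 169. The 275-fold of replicate 3 rests on 3 Cd8a counts and has an interval from 93.2 to 1339. The 2 chains did not order the libraries alike: Cd8a was highest in replicate 1 and Cd8b1 in replicate 4.

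**Figure D2:**
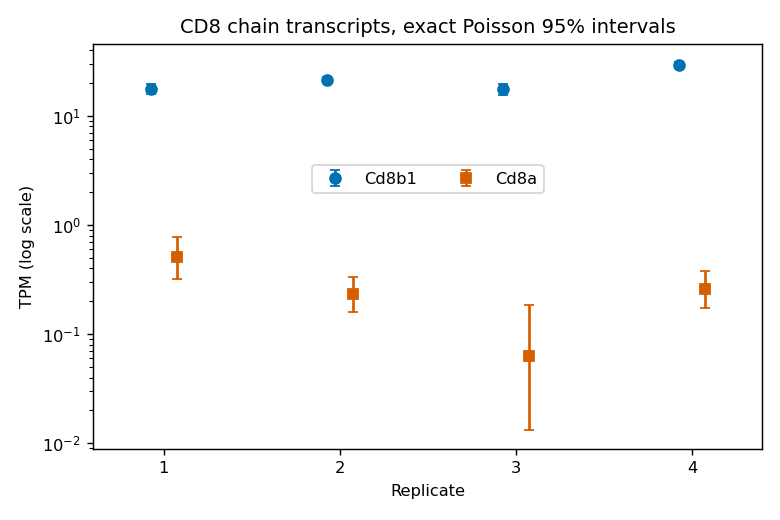
TPM of Cd8b1 (circles) and Cd8a (squares) in each replicate on a log axis, with exact Poisson 95% intervals that cover counting error only. The Cd8b1 values of 17.5 to 29.2 lie above every Cd8a interval, and the Cd8a intervals of replicates 1 and 3 do not overlap.

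The CD8 genes lie on the same strand, 35932 bases apart, with Cd8b1 first. No exon base of either is shared with another gene of the tables on either strand. Of the other genes within 100 kb, 3 reached a TPM of 1 in any library. Rmnd5a, a ubiquitin ligase subunit on the opposite strand 9461 bases beyond Cd8a, stood at 61.8 to 63.8 TPM. Krcc1, upstream of Cd8b1 on its strand, stood at 51.7 to 55.5 TPM, and the unnamed gene model Gm44321 at 1.37 to 2.59. Genes below 1 TPM were not listed, and among them Smyd1, a muscle gene 555 bases before Cd8b1 on the opposite strand, had a mean of 0.123 TPM, below that of Cd8a.

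Against Cd4, Cd8b1 was lower by 5.73, 5.52, 5.84 and 5.05 log2 in replicates 1 to 4 (mean 5.53 ± 0.35, SD, n = 4; exact sign-flip p = 0.125). In bulk RNA a small number of cells with much Cd8b1 and many cells with little cannot be told apart. Of 16 genes typical of cytotoxic CD8 cells, 9 (56.2%) reached a TPM of 1 in every library, against 49.9% of all protein-coding genes, and the summed level of all 16 was 219.6, 214, 222 and 233 TPM in replicates 1 to 4. Like Cd8b1 it was highest in replicate 4, but it was lowest in replicate 2, where Cd8b1 was above replicates 1 and 3. The granzyme gene Gzmb stood at 19.1, 17.4, 21.2 and 27.1 TPM, and Eomes, a factor of CD8 effector cells, at 3.69 to 5.67, both also highest in replicate 4. Of the 3 most abundant of the 16, the chemokine gene Ccl5 was highest in replicate 4 too, at 76.6 TPM. The death ligand gene Fasl and the granule gene Nkg7 were lowest there, at 74.6 and 28.4 TPM, so the list did not move together. Gzmk, another granzyme gene, had 0 counts in all libraries, and Prf1, which encodes perforin, stood at 0.595 to 1.15 TPM. Dendritic cells, some of which carry CD8 alpha chains, were represented by 7 markers whose summed level was 11.3 to 19.1 TPM, also highest in replicate 4 and mostly from Batf3. Itgax, Clec9a and Siglech had 0 counts in all 4 libraries, Flt3 and Xcr1 had 72 and 16 counts over the 4, and Zbtb46 stood at 2.47 to 2.67 TPM. The part of cytotoxic or dendritic cells in the level of either CD8 chain was not tested.

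Zbtb7b (ENSMUSG00000028042.15, chromosome 3, 89377644 to 89394776, minus strand, mm10) stood at 90.5, 98.8, 106.9 and 103.2 TPM in replicates 1 to 4. Runx3 (ENSMUSG00000070691.10, chromosome 4, 135120652 to 135177990, plus strand, mm10), its counterpart of the CD8 lineage, stood at 62.0, 69.4, 73.8 and 69.0 TPM. The groups of values do not overlap, and both genes were lowest in replicate 1 and highest in replicate 3. The ratio of Zbtb7b to Runx3 was 1.46, 1.42, 1.45 and 1.50, a mean of 1.46 ± 0.0299 (SD, n = 4). This was the narrowest of the 29 differences, with an SD of 0.03 log2 around a mean of 0.54 (exact sign-flip p = 0.125). The regulators of the opposed lineages were therefore both present at levels within the same order of magnitude. The coreceptor transcripts were further apart, by an amount that depends on the CD8 chain. Cd4 minus Cd8b1 was 5.53 ± 0.35 log2, and Cd4 minus Cd8a was 11.52 ± 0.82 (SD, n = 4, exact sign-flip p = 0.125 each). The latter rests on 3 to 31 Cd8a counts and was 9.60 with a pseudocount of 1.

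Runx3 was the main Runx transcript. Runx1 (ENSMUSG00000022952.16, chromosome 16, 92601466 to 92826149, minus strand, mm10) stood at 17.4, 14.6, 15.6 and 14.7 TPM. Runx2 (ENSMUSG00000039153.16, chromosome 17, 44495987 to 44814797, minus strand, mm10) stood at 4.73, 6.22, 6.28 and 5.98 TPM. Replicate 1 had the highest Runx1 and the lowest Runx2 and Runx3. Of the summed TPM of the 3 genes, Runx3 took 73.7%, 76.9%, 77.1% and 76.9%, Runx1 20.7%, 16.2%, 16.3% and 16.4%, and Runx2 the rest. Runx1 minus Runx3 was -2.13 ± 0.20 log2, Runx1 minus Runx2 was 1.42 ± 0.30 and Runx3 minus Runx2 was 3.54 ± 0.10 (SD, n = 4; exact sign-flip p = 0.125 each). The length used for Runx1 bears on its level: its exons cover 11827 bases, while the longest transcript in GENCODE M21 has 5861. With longest transcripts Runx1 stood at 25.1 ± 2.21 TPM and took 24.7% ± 2.82 of the Runx sum (SD, n = 4), and it then lay above Cd8b1 in place of below it.

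Runx genes have a distal and a proximal promoter, which give proteins with different first residues. Gene counts do not separate them, so promoter use was not measured. Windows from 250 bases before to 50 after a start site, from RefSeq on GRCm38.p6, were found for 6 of the 8 genes (9 windows). Cd4 and Cd8b1 had none. The windows were searched on both strands for TGTGGT, the core of the motif that Runx proteins bind, which 16.8% of all 32851 windows hold, and for 2 non-overlapping copies of it spaced by 2 bases, TGTGGTNNTGTGGT, which 7 windows (0.0213%) hold. The distal windows of Runx1, Runx2 and Runx3 are 3 of those 7. A further one, of the non-coding gene Gm16225, starts 205 bases from Runx3 on the opposite strand and holds the same site. The sites are shown because they are the sequence feature that these genes share, on the strand of the gene, with the reverse complement of the core in capitals.
Runx1: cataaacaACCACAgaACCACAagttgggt
Runx2: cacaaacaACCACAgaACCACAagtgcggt
Runx3: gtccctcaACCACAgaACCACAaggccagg

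They lie at chr16:92826025-92826054 (minus strand), chr17:44814583-44814612 (minus strand) and chr4:135120503-135120532 (plus strand). The longest run common to the 3 sites has 18 bases, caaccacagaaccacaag. Counting the start site as 0, the tandem copy begins at base 28 in Runx1, 23 in Runx2 and -134 in Runx3. Runx3 is thus the one whose copy lies before the annotated start. Its 250 bases before the start (chr4:135120395-135120644, plus strand), with the same letters in capitals, read:
Runx3: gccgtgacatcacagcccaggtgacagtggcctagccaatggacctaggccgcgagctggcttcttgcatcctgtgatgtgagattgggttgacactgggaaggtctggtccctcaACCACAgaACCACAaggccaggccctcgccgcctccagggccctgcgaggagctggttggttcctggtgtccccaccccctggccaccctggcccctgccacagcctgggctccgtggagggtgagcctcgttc

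The proximal windows of Runx1 and Runx3 hold no TGTGGT, and are richer in CG dinucleotides, with 35 and 45 against 2 and 8 in the distal windows. Zbtb7b has 1 TGTGGT in 1 of its 2 windows, and the windows of Cd8a and Cbfb hold none. A match describes letters only, not binding.

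Cbfb (ENSMUSG00000031885.14, chromosome 8, 105170674 to 105217989, plus strand, mm10) stood at 108.5, 115.3, 106.2 and 98.9 TPM in replicates 1 to 4. The summed Runx level was 84.2, 90.3, 95.7 and 89.6 TPM. The shared partner thus exceeded the sum of the Runx transcripts 1.29-, 1.28-, 1.11- and 1.10-fold, or by 0.25 ± 0.12 log2 (SD, n = 4; exact sign-flip p = 0.125). The margin was wider in replicates 1 and 2, which have high Xist, than in replicates 3 and 4, and the part of sex in it was not tested. It rests on gene length: with CPM the difference was -0.63 log2, in the opposite direction in 4 of 4 libraries, and with longest transcript lengths the ratio of TPM was 1.07, 1.09, 0.946 and 0.940, above 1 in 2 libraries only.

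**Figure D3:**
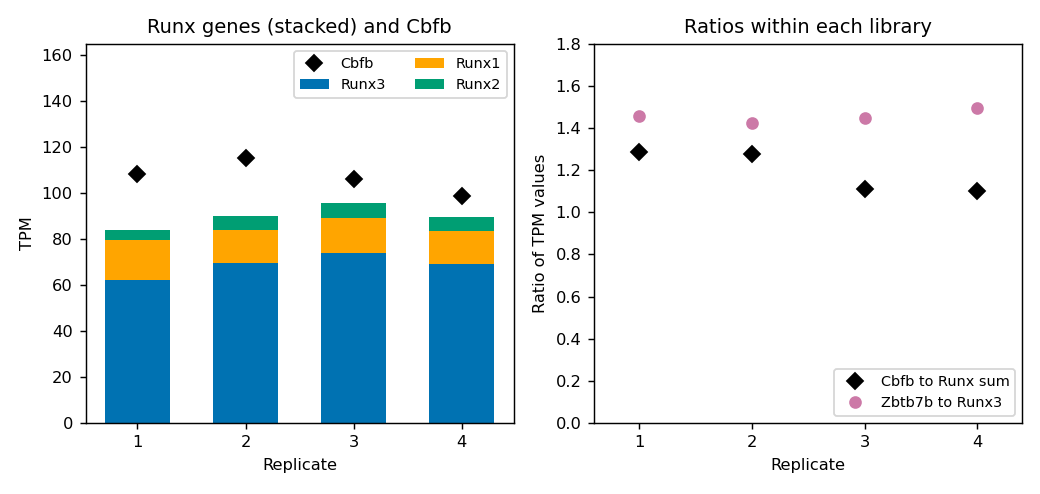
Left, stacked bars of Runx3, Runx1 and Runx2 TPM in each replicate, with Cbfb as diamonds; right, the ratios of Cbfb to the Runx sum and of Zbtb7b to Runx3. Cbfb lies above each stack, and the Zbtb7b to Runx3 ratio stays between 1.42 and 1.50.

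The spread between libraries was then tested over all genes with the goodness of fit of each gene in edgeR, given the trended dispersion, which asks whether a gene varies more than is usual at its level. Of 14269 genes tested, 66 (0.463%) had a Benjamini-Hochberg adjusted p below 0.05. Of the 8 genes, 7 were tested, since Cd8a was too low for the filter, and 0 of the 7 were called by edgeR under the trended or the common dispersion. Cd8a was tested only in alternative fits, with an unadjusted edgeR p of 0.271 without a filter and 0.308 without replicate 3, its lowest library. At an unadjusted p below 0.05 there were 812 of all tested genes (5.69%) and 1 of the 7, Cd8b1, whose edgeR adjusted p was 0.554 (range over the alternatives 0.0934 to 1.00). Its SD was 0.34 log2 CPM, above that of 96.6% of the 500 genes nearest in level. The unadjusted edgeR p of Cd8b1 was 0.0140 with all libraries and 0.553 without replicate 4, its highest library. Runx1 had an SD of 0.16 (edgeR adjusted p = 0.894), above 93.8% of its 500 nearest genes, with replicate 1 highest. The SD of Runx2 was 0.15, of Cbfb 0.10, of Zbtb7b 0.067 and of Runx3 0.062.

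**Figure D4:**
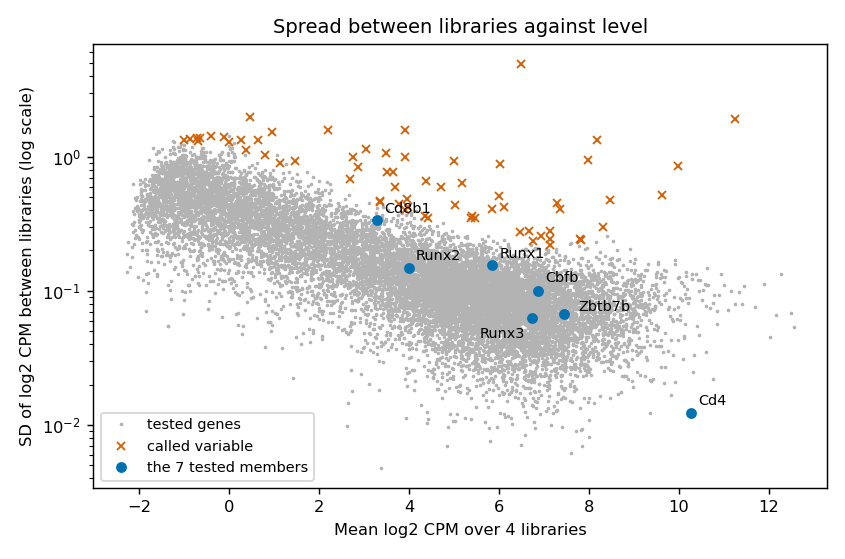
SD of log2 CPM between the 4 libraries (log axis) against mean log2 CPM for the 14269 tested genes (grey), the 66 called variable (crosses) and the 7 tested genes described here (blue). Cd4, at 0.012, lies below the cloud at its level and Cd8b1, at 0.34, near its upper edge.

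The values were also set beside depth and beside the Xist level, both after seeing the data. In scaled CPM, 2 of the 7 tested genes, Cd4 and Runx1, were higher in both libraries with fewest counts (replicates 1 and 3) than in both others, as were 15.5% of all tested genes. Cd8b1 alone of the 7 was lower in both, as were 16.2%. With TPM the division by depth held for Runx1 and Cd8b1, while the Cd4 values overlapped. Cbfb was higher in both libraries with high Xist (replicates 1 and 2) than in both others, as were 18.2% of all tested genes, and Zbtb7b and Runx3 were lower in both, as were 18.2%. In TPM this held for Cbfb and Zbtb7b, while the Runx3 values overlapped. With 7 genes nothing was read from these counts, and the part of depth or sex in the spread of any gene was not tested. In centred log2 CPM over the 4 libraries, the patterns nearest to that of Cd8b1 by root mean square difference were those of Gm12346, Cacna1s and Acot4, at 0.035, 0.036 and 0.042. Those nearest to the flat pattern of Cd4 were Ctso, Cpm and Elovl6, at 0.0028, 0.0045 and 0.0054, out of 6838 genes within 0.1 of Cd4. Each pattern has only 4 points, and these names are a description.

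Other genes of the lineage choice were broadly expressed. Of 18 regulators of the CD4 and CD8 choice, 18 were at a TPM of 1 or more in all 4 libraries, as were 49.9% of all protein-coding genes. Their median level was 65.5 TPM. The most abundant were Chd4, a chromatin remodeller that binds the Cd4 locus, at 344 ± 17.6 TPM (SD, n = 4), Mta2, its partner in the same complex, at 312 ± 9.04, and Tcf7, which encodes the T cell factor TCF1, at 311 ± 9.89. Gata3, which acts upstream of Zbtb7b, stood at 33.6 to 42.6 TPM, and Tox, needed for the CD4 lineage in the thymus, at 24.0 to 27.1. Both were named after their values were seen. In this list 0 of 18 were called variable by edgeR, and 0 had an unadjusted p below 0.05, against 0.463% and 5.69% of all tested genes.

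Of 13 corepressors and ETO family genes that work with or against Runx proteins, 10 (76.9%) reached a TPM of 1 in every library. The share of all protein-coding genes was 49.9%. The highest were Aes, a short Groucho family member, at 261 ± 22.0 TPM (SD, n = 4), and the deacetylases Hdac1 at 170 ± 3.01 and Hdac3 at 98.5 ± 0.470. Among the long Groucho genes, which dock on the end of Runx proteins and were named after their values were seen, Tle3 stood at 71.8 ± 3.68 TPM and Tle4 at 30.2 ± 0.541. Tle1 was at 2.85 ± 0.575 and Tle2 at 0.270 ± 0.0537. The ETO genes Runx1t1, with 0 counts, and Cbfa2t3, at 0.0229 TPM or below in each library, were at or near the detection limit, while Cbfa2t2 stood at 12.3 ± 0.640 TPM. Of the 11 tested, 0 were called by edgeR, and 0 had an unadjusted p below 0.05, against 0.463% and 5.69% of all tested genes.

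Of the genes that act beside the coreceptors, all 9 of that list reached a TPM of 1, against 49.9% of all protein-coding genes. Their median was 224 TPM, and the lowest, Themis, stood at 14.6 ± 1.69 TPM (SD, n = 4). The kinase Lck, which binds the tail of both coreceptors, stood at 757 ± 21.0 TPM (SD, n = 4), the kinase Zap70 at 555 ± 41.4 and the adaptor Lat at 431 ± 21.3. All 7 helper genes reached a TPM of 1, against the same 49.9%. They were led by the costimulatory receptor Tnfrsf4 at 2642 ± 96.1, the growth factor Il2 at 621 ± 80.0 and Cd40lg, the ligand for B cell help, at 402 ± 11.3. In lists chosen with earlier results of these data known, the helper median of 396 TPM stood against 2.90 for the 16 cytotoxic genes. The highest of the latter were Fasl, a death ligand, at 80.7 ± 6.29 TPM, the chemokine Ccl5 at 64.9 ± 8.25 and the granule membrane gene Nkg7 at 30.9 ± 1.72. Over all 21764 protein-coding genes, low ones included, the median was 1.43 TPM. The tested members of these 3 lists held 0 calls by edgeR among 27, against 0.463% of all tested genes. Of the 27, 2 had an unadjusted p below 0.05, as had 5.69% of all tested genes: Il2 (edgeR adjusted p = 0.0867) and Klrc1 (adjusted p = 0.514).

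**Figure D5:**
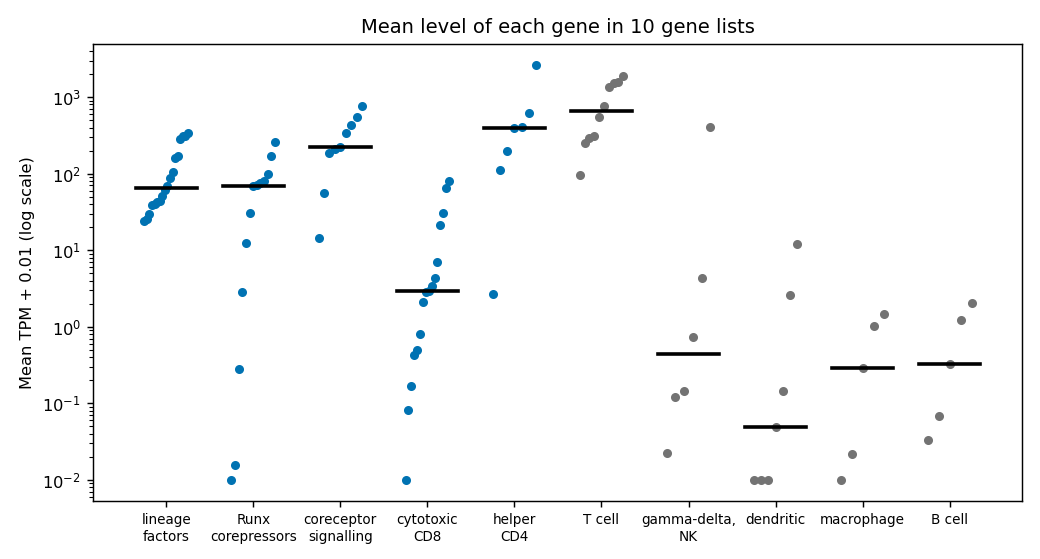
Mean TPM over the 4 libraries, plus 0.01, of each gene in 10 lists on a log axis; points are genes, bars are list medians, and grey marks cell type markers. The cytotoxic list has a median of 2.90 TPM against 396 for the helper list, and the point above its list among gamma-delta and NK markers is Il2rb, which activated T cells also express. The lists were chosen with earlier results of these data known.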

How the data were processed

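The authors deposited raw counts of read pairs per gene, made with featureCounts 1.4.6-p4 on exons of GENCODE M13 (mm10) from STAR alignments, per the file headers. Pairs with both ends mapped were counted on the reverse strand, and neither multiply mapped reads nor reads shared by several genes were included, so genes with near-identical copies can lose counts. Per the labels this is a total RNA assay, but the library protocol they link to has polyadenylated RNA in its name. Symbols came from GENCODE M21 by identifier (50376 of 50600 genes).

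TPM was computed here from these deposited counts and exonic gene length. Differences of log2(TPM + 0.1) between genes were tested over libraries by exact sign flips. All 29 (every pair of the 8 genes, and Cbfb against the summed Runx genes) were adjusted together. Spread between libraries was tested with edgeR 4.0.16 (filterByExpr, TMM, intercept only, goodness of fit), with log2 CPM at a prior count of 2, and checked on simulated counts. There, 200 genes were raised in replicate 1 only, and 43.9% were called at 1.5-fold, 63.8% at 2-fold and 94.9% at 4-fold. A gene that was not called can therefore still vary. Alternatives were a pseudocount of 1, CPM, longest transcript lengths, DESeq2 1.42.0 size factors, 2 other filters, a common dispersion and leaving out each library.

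Named genes were the 8, the 3 most abundant of each list and any called variable, expressed genes within 100 kb of the CD8 genes, and the 3 nearest patterns. Any other gene in the text, such as Gzmb, Gzmk, Prf1, Klrc1, Runx1t1, Cbfa2t3, the dendritic markers, Xist, Ddx3y and opposite-strand genes, was chosen after its values were seen. The members and lists were chosen with earlier results of these data known. Total counts were 34978213, 118937382, 42274502 and 95356041 in replicates 1 to 4. A count of 0 allows up to 3 counts, or 0.0252 to 0.0858 CPM. Reads have no molecular identifiers, so intervals and such limits cover counting error only.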

Additional observations from a re-analysis of the deposited data

Results flagged for a closer look

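Among 83 reported values, 13 had 1 library far from the other 3 relative to the whole range, against 4.15 that chance gives at 1 in 20. Several share a gene and are not independent. Replicate 1 stood apart in 11 of them. Runx1 took 20.7% of Runx TPM there against 16.2% to 16.4%, and Runx3 73.7% against 76.9% to 77.1%. The Runx3 to Runx1 ratio was 3.56 against 4.69 to 4.74, and the Runx1 to Runx2 ratio 3.69 against 2.35 to 2.49. On the log2 scale, Runx1 minus Runx3 was -1.82 against -2.24 to -2.22, and Runx1 minus Runx2 was 1.86 against 1.22 to 1.30. Cd4 minus Runx2 was 7.60 against 7.28 to 7.32, and Zbtb7b minus Runx1 was 2.37 against 2.75 to 2.80. In the same library Trac was 1755 TPM against 1926 to 1949, Il2rb 358 against 421 to 433, and Mta2 299 against 316 to 319. These gaps depend on the scale. In centred log2 CPM after TMM scaling, replicate 1 was at 0.00084 for Mta2, -0.044 for Trac and -0.13 for Il2rb. The Cd4 to Cd8a ratio was 15845 in replicate 3, from 3 Cd8a counts and with an exact 95% interval from 5422 to 76837, against 1834 to 4212 elsewhere. Trdc, a gamma-delta receptor gene, was 0.648 TPM in replicate 4 against 0.738 to 0.756.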

How the results depend on the processing

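Of 203 recomputed differences, 198 kept their direction, including all 116 without 1 replicate and all 29 with a pseudocount of 1. For the 28 differences with the same direction in every library, neither of these alternatives could have reversed it. Only Zbtb7b minus Cbfb was open to them, so these counts do not measure stability. With CPM in place of TPM, Cbfb minus the Runx sum was -0.63 log2, Cd8b1 minus Runx1 was -2.55, Cd8b1 minus Runx2 was -0.71 and Zbtb7b minus Cbfb was 0.58, all opposite to the TPM values, since CPM carries no length. With longest transcripts, Cd8b1 minus Runx1 was -0.58. The smallest p without 1 replicate is 0.25, so the tests say nothing of stability. The count of genes variable between libraries was 955 under a common dispersion (51 shared with the 66), and 41 to 68 without 1 replicate, of which 41 without replicate 1. Of the genes described here 0 were called in any of these fits, with 1 or 2 at an unadjusted p below 0.05. No paired analysis was possible because there is only 1 group. Depth limits Cd8a, with 3 to 31 counts.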

Other observations

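Transcripts on the opposite strand of, or within 1 kb of, the 8 genes were read from the strand-specific counts. Gm15417, an antisense gene that overlaps Zbtb7b (chromosome 3, 89391850 to 89398779, plus strand, mm10), stood at 6.53, 7.07, 7.72 and 5.52 TPM in replicates 1 to 4. Runx2os1, antisense to Runx2 (chromosome 17, 44735845 to 44737612), had 1.79, 1.21, 2.24 and 1.41 TPM, from 16 to 35 counts. Supt3, a transcription complex gene that overlaps Runx2 on the opposite strand, was the highest of these 6 genes at 15.6, 16.6, 13.7 and 14.8 TPM, above Runx2 in every library. Gm16225, a non-coding gene that starts 205 bases from Runx3 on the opposite strand (chromosome 4, 135118221 to 135120447), had 21, 3, 0 and 0 counts in replicates 1 to 4. Smyd1, a muscle gene on the opposite strand 555 bases before Cd8b1, had 6 to 15 counts in each library, and Dcst2, 95 bases from Zbtb7b, had 0, 0, 10 and 1.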
